A study of Mus musculus with 12 samples.

Results

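The genes described here encode the transporters of the mitochondrial inner membrane and the machinery that brings proteins into mitochondria. They were chosen by name, as genes whose symbol on the array starts with Slc25a (the mitochondrial carriers), Timm (translocases of the inner membrane) or Tomm (translocases of the outer membrane). Of 12393 genes with a symbol on the array, 55 met this rule, 33 of them carriers and 22 import genes. Of the 55, 48 passed the filter on low values (27 carriers and 21 import genes) and were tested among 8253 genes in all. The filter asked for a level above the array's 40th percentile, which lay between 3.51 and 3.81 on the log2 scale, in at least 3 of 12 arrays.

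Carriers of the Slc25 family move nucleotides, phosphate, amino acids, keto acids, carnitine esters, iron and cofactors across the inner membrane, and so connect the matrix with the rest of the cell. Almost all mitochondrial proteins, the carriers included, are made in the cytosol and enter through the outer membrane complex TOM. Precursors with a presequence go on through the TIM23 complex, while carrier precursors are handed by the small Tim chaperones of the intermembrane space to the TIM22 complex. Neurons of the striatum depend on oxidative phosphorylation, which needs both systems.

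Total RNA of the striatum of C57Bl/6 mice was measured on 12 Affymetrix arrays, 1 per mouse, in 4 groups of 3 mice. The groups were TIF-IAD1RCre mutants at 9 weeks, controls at 9 weeks, TIF-IAD1RCre mutants at 13 weeks and controls at 13 weeks. Rrn3 encodes TIF-IA, without which RNA polymerase I cannot start on the genes of ribosomal RNA, and the Cre recombinase acts in neurons with the D1 dopamine receptor, so other cells of the striatum keep the gene. The labels say no more of the controls' genotype, and the series text names 5 arrays per condition in 1 place and 3 mice in another. The study asked which genes change while the affected neurons survive and later die.

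All values are the authors' GCRMA signals on the log2 scale, so a difference of 1 is a 2-fold change, and a level cannot be set against that of another probe set. Differences are means of mutants minus means of controls with the standard error (SE) of limma's moderated fit, n = 3 mice in each group. A gene passed the test when its Benjamini-Hochberg adjusted p, over all 8253 genes, was under 0.05, and per-array values are given in the order of mice 1, 2 and 3.

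Rrn3 read 6.90, 6.96 and 6.91 in mutants at 9 weeks against 8.0, 7.97 and 8.20 in controls, a difference of -1.13 that passed the test. At 13 weeks it read 7.72, 7.58 and 7.18 in mutants against 7.96, 7.54 and 8.04 in controls, and the difference of -0.35 did not pass. Whether its probe set lies inside the deleted part is not known. The samples are labelled as medium spiny neurons, yet the mean level of 5 oligodendrocyte markers lay between 12.01 and 12.62 in every group, so the arrays describe whole striatal tissue. Fewer cells of a type and less RNA per cell cannot be told apart in such samples.

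Markers of the cell types moved strongly at 13 weeks, where 23.4% of all genes tested rose and 21.9% fell. Of 10 medium spiny neuron markers, 9 fell, and their mean level was 9.32 to 10.1 in mutants against 11.43 to 12 in controls. Of 8 astrocyte markers 7 rose, with a mean level of 11.65 to 11.8 in mutants against 9.61 to 9.78 in controls. All 8 microglia markers rose, with a mean level of 11.36 to 11.73 in mutants against 8.86 to 9.19 in controls. At 9 weeks the median difference was -0.44 for the medium spiny neuron markers, 0.22 for the astrocyte and 0.36 for the microglia markers. Limma called 0 of them at that age, against 5% of all genes. Of these lists' markers 4, 1 and 1 had an unadjusted p under 0.05, where 21.4% of all genes did. The part of these shifts in the results for carriers and import genes was not tested.

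Some arrays stood apart from their group. In control mouse 3 at 13 weeks, 17 of the 48 members tested (35.4%) lay more than 1 log2 from the mean of the other controls of that age, and so did 20.6% of all genes. It was the one array whose 3' minus 5' signal of Actb was under 1 (0.82, against 1.05 to 1.96 elsewhere). Its 3' minus 5' signal of Gapdh, -0.06, lay within the range of the other arrays (-0.2 to 0). Because this array lay far from its group, results at 13 weeks are given with and without it. In control mouse 1 at 13 weeks 2 members and 4.99% of all genes lay that far from their group mates, in control mouse 2 it was 3 members and 2.92%, and in mutant mouse 3 at 9 weeks it was 1 member (Slc25a20) and 4.51%. Slc17a6 and Calb2, markers of regions next to the striatum, read 7.99 and 7.74 in mutant mouse 3 at 9 weeks and 7.08 and 8.0 in control mouse 1 at 13 weeks. They were lower in every other array, with 4.44 and 5.01 in control mouse 2 at 13 weeks as the next highest. Ttr, on the same list of markers, read 5.26, 3.35 and 7.32 in mutants at 13 weeks against 2.86, 3.1 and 3.19 in controls. It was higher in those mutants (2.26 ± 0.77, adjusted p = 0.031 in limma). The part of these markers in the results was not tested. Read from Xist and Eif2s3y, 1 of 3 mutants and 1 of 3 controls were female at 9 weeks, and 3 of 3 mutants and 1 of 3 controls at 13 weeks, where the female control is mouse 3.

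Promoters of some members that passed the test at 13 weeks are shown before their values, picked after their matches were seen, so that windows with and without the motifs searched stand side by side. Members with larger or steadier differences, such as Slc25a22 and Slc25a14, are not among them. RefSeq windows (GRCm38.p6, 250 bases before to 50 bases after the start of the gene, read 5′ to 3′ on the gene's strand) were matched for 40 of the 48 tested members. Capitals mark a match, on either strand, to the CCAAT box, to the ETS-type motif CCGGAAGT or to the interferon-stimulated response element (ISRE), which only the window of Tomm70a among these holds. The first 4 genes were higher in mutants at 13 weeks and the last 3 were lower. Timm8a1 lies at chrX:134541621-134541920 (minus strand), Slc25a28 at chr19:43674832-43675131 (minus strand), Slc25a20 at chr9:108661886-108662185 (plus strand) and Timm23 at chr14:32201842-32202141 (minus strand). Slc25a11 lies at chr11:70646990-70647289 (minus strand), Tomm40 at chr7:19715380-19715679 (minus strand) and Tomm70a at chr16:57121464-57121763 (plus strand).
Timm8a1: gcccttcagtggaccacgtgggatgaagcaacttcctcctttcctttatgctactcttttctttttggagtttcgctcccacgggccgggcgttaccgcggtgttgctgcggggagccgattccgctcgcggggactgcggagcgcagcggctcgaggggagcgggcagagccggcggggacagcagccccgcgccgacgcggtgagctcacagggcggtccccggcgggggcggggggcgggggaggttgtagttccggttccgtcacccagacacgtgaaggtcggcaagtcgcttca
Slc25a28: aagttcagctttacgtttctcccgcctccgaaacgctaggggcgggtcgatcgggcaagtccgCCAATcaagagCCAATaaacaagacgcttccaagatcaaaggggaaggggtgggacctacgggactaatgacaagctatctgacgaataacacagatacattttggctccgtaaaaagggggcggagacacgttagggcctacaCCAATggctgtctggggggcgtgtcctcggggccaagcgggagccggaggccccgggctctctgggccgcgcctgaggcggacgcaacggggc
Slc25a20: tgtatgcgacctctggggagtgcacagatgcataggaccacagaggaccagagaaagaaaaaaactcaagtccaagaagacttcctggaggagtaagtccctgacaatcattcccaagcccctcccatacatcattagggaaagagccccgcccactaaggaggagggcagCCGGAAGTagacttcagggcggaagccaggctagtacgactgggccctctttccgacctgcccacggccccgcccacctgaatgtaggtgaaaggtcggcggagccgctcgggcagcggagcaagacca
Timm23: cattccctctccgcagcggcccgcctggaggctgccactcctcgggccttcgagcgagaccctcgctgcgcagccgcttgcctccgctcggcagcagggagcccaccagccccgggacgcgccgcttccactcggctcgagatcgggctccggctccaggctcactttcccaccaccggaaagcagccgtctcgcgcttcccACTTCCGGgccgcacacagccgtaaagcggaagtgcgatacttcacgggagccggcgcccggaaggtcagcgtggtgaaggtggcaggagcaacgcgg
Slc25a11: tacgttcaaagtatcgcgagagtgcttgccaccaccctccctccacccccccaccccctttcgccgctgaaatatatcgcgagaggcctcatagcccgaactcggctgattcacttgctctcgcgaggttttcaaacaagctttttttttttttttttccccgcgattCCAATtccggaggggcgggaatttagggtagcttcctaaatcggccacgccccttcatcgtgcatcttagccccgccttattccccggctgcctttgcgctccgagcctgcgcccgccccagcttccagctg
Tomm40: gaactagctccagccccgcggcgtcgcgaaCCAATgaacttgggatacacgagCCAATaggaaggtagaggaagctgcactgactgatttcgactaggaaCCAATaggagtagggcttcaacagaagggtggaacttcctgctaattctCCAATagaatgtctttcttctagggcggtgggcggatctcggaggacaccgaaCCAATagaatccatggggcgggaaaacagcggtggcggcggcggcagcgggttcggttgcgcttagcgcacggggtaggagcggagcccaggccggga
Tomm70a: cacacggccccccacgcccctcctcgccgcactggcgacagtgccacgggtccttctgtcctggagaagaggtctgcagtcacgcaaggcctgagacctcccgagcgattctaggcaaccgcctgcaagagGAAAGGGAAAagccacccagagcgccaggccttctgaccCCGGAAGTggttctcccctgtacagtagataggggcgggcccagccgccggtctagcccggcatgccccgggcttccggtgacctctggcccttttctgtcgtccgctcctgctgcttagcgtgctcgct

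The window of Timm8a1 held none of the motifs searched, that of Slc25a28 held 3 CCAAT boxes and that of Tomm40 held 5. CCAAT was found in 11 of 13 members lower at 13 weeks that have a window (84.6%) and in 1 of 4 members higher (25%). It was found in 47.5% of the 40 members with a window and in 41.1% of all genes with one. In this paragraph all genes are the 27025 RefSeq genes with a window, whether tested or not. A gene counts if any of its windows holds a match. By family it was found in 14 of 21 carriers (66.7%) and in 5 of 19 import genes (26.3%), and most of the lower members are carriers. The ETS-type motif was found in 2 of 4 members higher, in 1 of 13 members lower, in 6 of 19 import genes (31.6%), in 1 of 21 carriers (4.76%) and in 4.31% of all genes. The motif of NRF1, also searched on both strands, was found in 7.5% of members and 5.19% of all genes. These matches describe the letters of the windows and are no evidence of binding.

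At 13 weeks the carriers moved mainly downward in mutants, and the import genes moved in both directions. Of the 48 members tested, 21 passed the test (43.8%), against 45.4% of all 8253 genes. Higher in mutants were 4 members (8.33%, against 23.4% of all genes), namely Slc25a20, Slc25a28, Timm23 and Timm8a1. Lower in mutants were 17 members (35.4%, against 21.9% of all genes), 12 of the 27 carriers (44.4%) and 5 of the 21 import genes (23.8%). The share of members called was thus near that of all genes, and the split between directions was not. All mutants lay below all controls in 12 carriers (44.4%) and 6 import genes (28.6%), against 26.8% of all genes. All mutants lay above all controls in 3 carriers (11.1%) and 4 import genes (19%), against 27.8%. The median difference was -0.24 over the carriers and 0.06 over the import genes, beside 0 over all genes tested. When each array was centred on its median, the median over all genes became -0.16 and that of the members -0.34, with 3 members higher and 19 lower beside 1562 genes higher and 2384 lower. With sex as a term, 10 members were higher and 15 lower, beside 2028 and 1813 of all genes. Without control mouse 1 at 13 weeks, 9 members were higher and 17 lower, beside 2004 and 1822 genes. Without control mouse 2 it was 7 and 16 members, beside 1950 and 1743 genes, and without mutant mouse 2 it was 3 and 11 members, beside 1540 and 1361 genes.

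**Figure D1:**
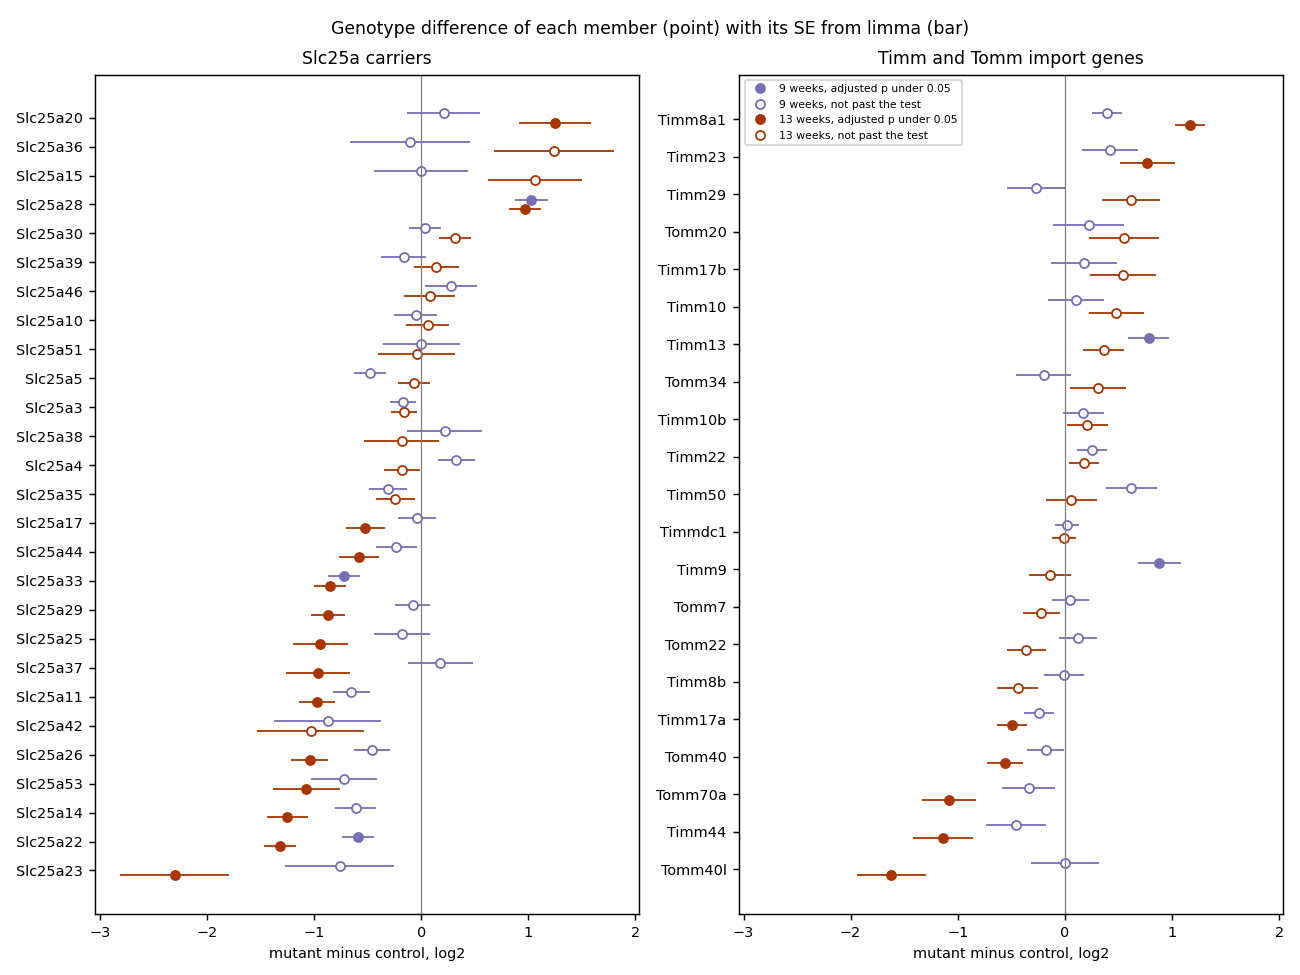
Difference between mutants and controls (log2, with SE, n = 3 mice per group) for each tested member, at 13 weeks and at 9 weeks, carriers on the left and import genes on the right. Among the carriers the 13-week differences reach -2.30 (Slc25a23) on the low side and 1.25 (Slc25a20) on the high side, and among the import genes -1.62 (Tomm40l) and 1.17 (Timm8a1).

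The ADP/ATP and phosphate carriers, which serve the synthesis and export of ATP, did not pass the test at 13 weeks. Slc25a4, an ADP/ATP carrier, read 13.54, 13.53 and 13.37 in mutants at 13 weeks against 13.76, 13.51 and 13.71 in controls (-0.18 ± 0.17, adjusted p = 0.411 in limma). Slc25a5, another ADP/ATP carrier, differed by -0.07 ± 0.15, and its other probe sets by between -0.73 and 0.09. Probe sets of Slc25a5 share sequence with other transcripts, so its value is uncertain. Slc25a3, the phosphate carrier, read 12.87, 12.91 and 13.08 in mutants against 13.13, 13.09 and 13.13 in controls, and this small gap (-0.16 ± 0.12) did not pass although the groups do not overlap.

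Among the carriers of keto acids and amino acids, Slc25a22, Slc25a11, Slc25a29 and Slc25a44 fell, while Slc25a10 and Slc25a15 did not pass and Slc25a13 was not tested. Slc25a22, a carrier of glutamate, read 7.43, 7.23 and 7.45 in mutants at 13 weeks against 8.80, 8.61 and 8.67 in controls. Every mutant lay more than 1 log2 below every control, and the difference was -1.32 ± 0.15 (2.5-fold lower, adjusted p = 2.64e-05 in limma). Slc25a11, the exchanger of 2-oxoglutarate and malate that serves the malate-aspartate shuttle, read 9.03, 9.20 and 9.47 in mutants against 10.02, 10.14 and 10.44 in controls (-0.97 ± 0.17, adjusted p = 0.000862). Its groups did not overlap either. Slc25a29, a carrier of basic amino acids, read 6.05, 5.97 and 6.09 in mutants against 6.64, 7.04 and 7.04 in controls (-0.87 ± 0.16). Slc25a44, a carrier of branched-chain amino acids, was lower by a smaller step (-0.58 ± 0.19, adjusted p = 0.0235). Its call ended without mutant mouse 2 or control mouse 1, with sex as a term and with the compared groups alone (adjusted p at most 0.0934). These values hold for the probe set used, and the other probe set of Slc25a44 past the filter differed by -1.19. Slc25a10, the dicarboxylate carrier, ranged from 5.73 to 6.34 in mutants and from 5.71 to 6.33 in controls and did not pass (0.06 ± 0.20).

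Of the calcium-regulated carriers of ATP-Mg and phosphate, Slc25a23 and Slc25a25 were lower, and Slc25a24 did not pass the filter. Slc25a23 read 7.62, 7.88 and 8.43 in mutants at 13 weeks against 9.33, 9.67 and 11.82 in controls, and gave the largest difference of any member (-2.30 ± 0.51, 4.91-fold lower, adjusted p = 0.00316 in limma). Control mouse 3 stood well above its group mates, and without it the difference was -1.52 ± 0.26. Slc25a25 read 6.72, 6.56 and 6.70 in mutants against 7.34, 7.43 and 8.02 in controls (-0.94 ± 0.26), or -0.72 ± 0.25 without that mouse. Both kept their call in all 23 alternatives run.

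Slc25a14, a brain-expressed relative of the uncoupling proteins, read 8.69, 8.57 and 9.06 in mutants at 13 weeks against 10.02, 10.26 and 9.78 in controls. All mutants lay below all controls, by 1.25 ± 0.19 on average (2.37-fold lower, adjusted p = 0.000237 in limma). Carriers of cofactors and nucleotides were also among those that fell. Slc25a26, which brings S-adenosylmethionine into mitochondria, read 6.72, 6.70 and 6.78 in mutants against 7.86, 7.57 and 7.89 in controls (-1.04 ± 0.17). Slc25a33, a pyrimidine nucleotide carrier, read 8.84, 8.88 and 9.10 in mutants against 9.67, 9.88 and 9.82 in controls (-0.85 ± 0.15). Slc25a17, which is known as a carrier of peroxisomes and not of mitochondria, passed narrowly (-0.52 ± 0.18, adjusted p = 0.0357) and did not pass without control mouse 3 (-0.33 ± 0.14, adjusted p = 0.0827) or without any 1 of the mutants (adjusted p at most 0.103). With the mean of probe sets its adjusted p was 0.0675, with the replicate number as a block 0.0531, and with the compared groups alone 0.1.

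The iron carriers went opposite ways. Slc25a28 (mitoferrin 2) read 9.16, 9.04 and 9.07 in mutants at 13 weeks against 8.01, 8.36 and 8.0 in controls, 1.95-fold higher (0.97 ± 0.15, adjusted p = 0.000273 in limma). Slc25a37 (mitoferrin 1) read 5.73, 5.53 and 5.39 in mutants against 6.77, 6.76 and 5.99 in controls (-0.96 ± 0.30, adjusted p = 0.0202). In both genes the mutants lay wholly on 1 side of the controls. The call of Slc25a37 ended when mutant mouse 2, mutant mouse 3, control mouse 1 or control mouse 2 was left out, with an adjusted p of at most 0.0646, while Slc25a28 passed in all 23 alternatives.

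Slc25a20, which carries acylcarnitines for fatty acid oxidation, was the other carrier that rose. It read 8.57, 8.53 and 8.5 in mutants at 13 weeks against 7.45, 7.91 and 6.5 in controls (1.25 ± 0.34, 2.37-fold, adjusted p = 0.0106 in limma). The mutants were nearly alike and the controls spread over more than 1 log2. Without control mouse 3 the difference was 0.85 ± 0.28 (adjusted p = 0.0271), and a second probe set of the gene differed by 1.05. Mutant mouse 3 at 9 weeks already read 8.56, where the other mutants of that age read 7.55 and 7.46. Slc25a15, an ornithine carrier, differed by 1.06 ± 0.44 and did not pass, with 5.41 in control mouse 3 beside 7.33 and 7.78 in its group mates, and without that mouse it differed by 0.35. Slc25a36, a pyrimidine nucleotide carrier, differed by 1.24 ± 0.56 and did not pass, with 4.94 in control mouse 3 beside 7.86 and 7.44.

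Among the remaining carriers, Slc25a53 fell (-1.07 ± 0.31, adjusted p = 0.0149 in limma), with mutants at 3.71, 3.87 and 4.40, near the filter's percentile, against 5.38, 5.45 and 4.37 in controls. Its call ended without mutant mouse 1, mutant mouse 2 or control mouse 2 and with sex as a term (adjusted p at most 0.0752). Slc25a51, a carrier of NAD+, read 9.45, 9.44 and 9.51 in mutants at 13 weeks against 9.98, 10.13 and 8.40 in controls and did not pass. Without control mouse 3 it was lower by -0.59 ± 0.15 (adjusted p = 0.00762), and it was the only member gained by that step at 13 weeks. With all arrays the probe set used differed by -0.04, and another probe set of Slc25a51 past the filter went the other way, by 0.51. Slc25a39, linked to glutathione import, and Slc25a46, a family member of the outer membrane, differed by 0.14 ± 0.21 and 0.08 ± 0.24. A second probe set of Slc25a39 differed by 1.03, so its probe sets disagree. Slc25a45 was not tested, since it exceeded the percentile in 2 arrays. It read 3.84, 3.92 and 3.69 in mutants at 13 weeks against 2.59, 2.91 and 2.77 in controls of that age. The other members that did not pass the filter were Slc25a2, Slc25a13, Slc25a24, Slc25a47, Slc25a48 and Timm8a2, whose levels stayed between 2.13 and 3.25 in all arrays.

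**Figure D2:**
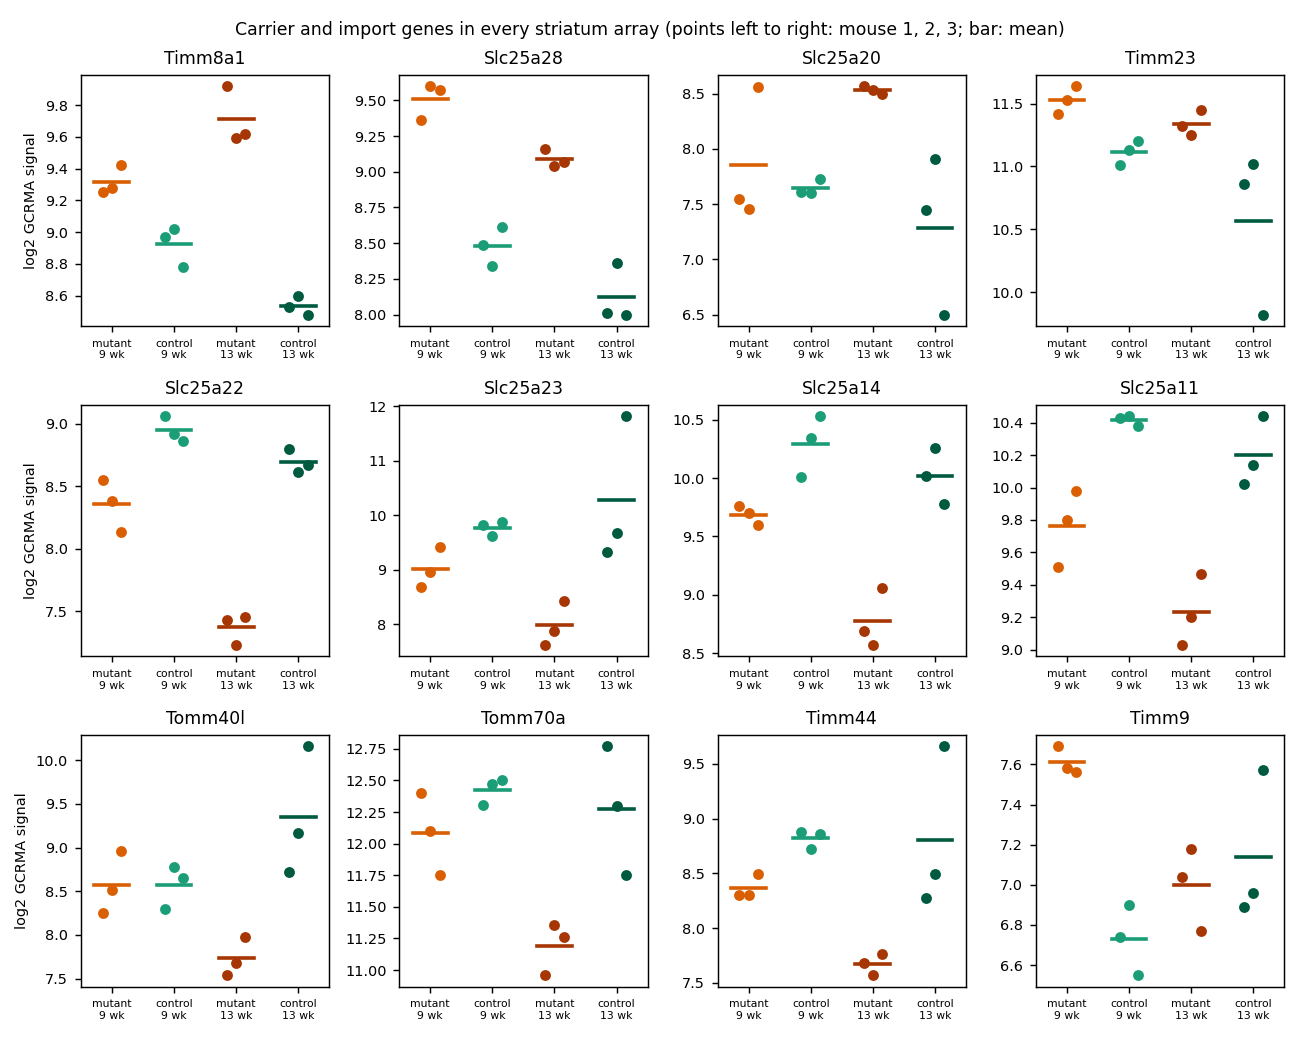
Log2 level of selected members in each array, with mutants left of controls at each age and a bar at each group's mean. Timm8a1 in mutants at 13 weeks (9.59 to 9.92) sits above all controls, Slc25a22 in mutants at 13 weeks (7.23 to 7.45) sits below all controls, and the control at 11.82 for Slc25a23 is mouse 3 at 13 weeks.

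In the TOM complex the receptor for carrier precursors and both forms of the channel fell at 13 weeks. Tomm70a, the receptor to which carrier precursors bind, read 10.96, 11.36 and 11.26 in mutants against 12.77, 12.30 and 11.75 in controls (-1.08 ± 0.25, 2.11-fold lower, adjusted p = 0.0039 in limma). Its other probe sets differed by -1.10, -1.21 and -2.02, all in the same direction. Tomm40l, a relative of the channel protein, read 7.54, 7.68 and 7.98 in mutants against 8.72, 9.17 and 10.16 in controls (-1.62 ± 0.32, 3.07-fold lower). Control mouse 3 was the highest, and without it the difference was -1.21 ± 0.24. Tomm40, the channel itself, was lower by a smaller step (-0.56 ± 0.17, adjusted p = 0.0195). Its call ended with mutant mouse 1 or mutant mouse 2 left out, with sex as a term or with the compared groups alone. Over all alternatives its adjusted p was at most 0.0719.

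The other TOM genes did not pass at 13 weeks. Tomm20, the receptor for presequences, read 12.78, 12.99 and 12.87 in mutants against 12.93, 12.72 and 11.33 in controls. Its difference of 0.55 ± 0.33 was 0.06 without control mouse 3, and its other probe sets lay between -0.73 and 0.37. Tomm22, a central receptor of the complex, differed by -0.36 ± 0.18, Tomm7, a small subunit, by -0.22 ± 0.17 and Tomm34, a cytosolic co-chaperone of import, by 0.31 ± 0.26.

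In the TIM23 complex, which takes presequence proteins, subunits differed in both directions. Timm23, the channel subunit, read 11.32, 11.25 and 11.45 in mutants at 13 weeks against 10.86, 11.02 and 9.82 in controls (0.77 ± 0.26, 1.71-fold higher, adjusted p = 0.0275 in limma). Without control mouse 3, far below its group mates, the difference was 0.40 ± 0.13 (adjusted p = 0.0237). Its call ended when any 1 of the 3 mutants was left out, with median centring, with no filter and with the compared groups alone, and the highest adjusted p was 0.106. Timm44, which ties the import motor to the channel, read 7.68, 7.57 and 7.76 in mutants against 8.27, 8.49 and 9.66 in controls (-1.14 ± 0.28, adjusted p = 0.00636). The groups did not overlap, and without control mouse 3 the difference was -0.71 ± 0.13.

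Timm17a, a partner of the channel, was lower (-0.49 ± 0.14, adjusted p = 0.0156 in limma), but did not pass without mutant mouse 1 or 2. Nor did it pass with the compared groups alone (adjusted p = 0.0781). Its relative Timm17b read 8.07, 8.07 and 8.08 in mutants at 13 weeks against 7.87, 7.89 and 6.85 in controls and did not pass (0.54 ± 0.31). Timm50, the receptor of the complex, read 7.70, 7.56 and 7.74 in mutants against 7.31, 7.34 and 8.16 in controls, where control mouse 3 again stood on the far side of the mutants.

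Among the small Tims and the TIM22 complex, 1 gene passed at 13 weeks. Timm8a1 is the mouse counterpart of the gene mutated in human deafness-dystonia syndrome, and its protein works with Timm13 as a chaperone. It read 9.92, 9.59 and 9.62 in mutants at 13 weeks against 8.53, 8.60 and 8.48 in controls (1.17 ± 0.14, 2.26-fold higher, adjusted p = 4.59e-05 in limma). The lowest mutant lay about 1 log2 above the highest control, a second probe set differed by 0.99, and the call held in all 23 alternatives. The gene is on the X chromosome and all 3 of these mutants are female. The 1 female control of each age read 8.48 at 13 weeks, in mouse 3 that stood apart from its group, and 8.78 at 9 weeks. Beyond the fit with sex as a term, the part of sex in this difference was not tested. Slc25a5, Slc25a14, Slc25a53 and Timm17b are also on the X chromosome. With sex as a term Timm17b gained a call at 13 weeks (0.96, adjusted p = 0.0147 in limma). In that fit Slc25a53 lost its call (-0.73, adjusted p = 0.0752) and Slc25a14 kept its call.

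Timm8b, a close relative, read 10.37, 10.53 and 10.63 in mutants at 13 weeks against 10.71, 11.17 and 10.96 in controls (-0.44 ± 0.19, adjusted p = 0.0749 in limma). Its mutants were all below its controls, and it did not pass. The chaperones Timm9, Timm10 and Timm13 differed by -0.14 ± 0.20, 0.48 ± 0.26 and 0.36 ± 0.19. For TIM22, the channel subunit Timm22 differed by 0.18 ± 0.14 and Timm10b by 0.21 ± 0.19, and the other probe sets of Timm10b by -0.53, 0.06 and 0.20. Timm29, a TIM22 subunit known from human cells, read 9.57, 9.34 and 9.49 in mutants against 9.21, 9.27 and 8.06 in controls and did not pass. Timmdc1, which shares the prefix but is known as an assembly factor of respiratory complex I, ranged from 5.8 to 5.85 over all 12 arrays.

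At 9 weeks few members passed. Of the small Tims, Timm9 and Timm13 did, while Timm8a1 (0.39 ± 0.14), Timm10 (0.1 ± 0.26) and Timm8b (-0.01 ± 0.19) did not. Of the 48 members, 5 passed (10.4%), against 5% of all genes. Higher in mutants were Slc25a28, Timm9 and Timm13 (6.25% of the members, against 2.02% of all genes), and lower were Slc25a22 and Slc25a33 (4.17%, against 2.98%). The median difference was -0.16 over the carriers and 0.10 over the import genes, beside -0.02 over all genes. When any 1 array of that age was left out, 1 member remained higher (Slc25a28) and 0 or 1 lower. Among all genes, the lowest counts in these fits were 19 higher and 42 lower. Of the import genes none was lower by limma's adjusted p, where 2.98% of all genes were. At an unadjusted p under 0.05, 4 import genes differed, none of them lower, where 21.4% of all genes differed in either direction.

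Slc25a28 read 9.36, 9.60 and 9.57 in mutants at 9 weeks against 8.49, 8.34 and 8.61 in controls (1.03 ± 0.15, 2.04-fold higher, adjusted p = 0.00532 in limma). This gap was as wide as that at 13 weeks, and it was the only one of the 5 to pass in all 23 alternatives. Timm9, a chaperone that escorts carrier precursors, read 7.69, 7.58 and 7.56 in mutants against 6.74, 6.90 and 6.55 in controls (0.88 ± 0.20, adjusted p = 0.0296). Timm13, the partner of Timm8a1, read 11.60, 11.85 and 11.93 in mutants against 10.86, 11.17 and 11.02 in controls (0.78 ± 0.19, adjusted p = 0.0381). In both small Tims every mutant lay above every control. Neither passed when any 1 of the 6 arrays of that age was left out. Timm13 also lost its call without mutant mouse 1 or 2 at 13 weeks and with median centring (adjusted p at most 0.142). The mean of the probe sets of Timm9 gave 0.16 with an adjusted p of 0.573. The other probe set in that mean did not pass the filter (mean level 3.14) and differed by -0.56.

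Slc25a22 read 8.55, 8.38 and 8.13 in mutants at 9 weeks against 9.06, 8.92 and 8.86 in controls (-0.59 ± 0.15, adjusted p = 0.0443 in limma). Slc25a33 read 8.97, 9.11 and 9.13 in mutants against 9.69, 9.68 and 10 in controls (-0.72 ± 0.15, adjusted p = 0.0226). Both sets of mutants lay below their controls. Leaving out any 1 of the 9-week arrays ended the call of Slc25a22 (adjusted p at most 0.157), and so did leaving out the 13-week arrays of mutant mouse 1, mutant mouse 2 or control mouse 2, quantile normalization and a term for sex. For Slc25a33 the call ended when any 1 of the 9-week controls, mutant mouse 1 or mutant mouse 2 was left out (adjusted p at most 0.0981).

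More carriers were separated by group at 9 weeks than passed the test. All mutants lay below all controls in 11 of 27 carriers (40.7%) and 2 of 21 import genes (9.52%), against 20.6% of all genes. All mutants lay above all controls in 1 carrier (3.7%) and 5 import genes (23.8%), against 15%. Slc25a11 is an example of a carrier, with 9.51, 9.80 and 9.98 in mutants at 9 weeks against 10.43, 10.44 and 10.38 in controls (-0.65 ± 0.17, adjusted p = 0.0551 in limma). Timm50 is an example of an import gene, with 7.26, 7.43 and 7.75 in mutants against 6.53, 7.04 and 7.01 in controls (0.62 ± 0.24, adjusted p = 0.158). The mean level of the tested carriers was 8.19 to 8.21 in mutants at 9 weeks against 8.37 to 8.4 in controls, and 7.82 to 7.96 in mutants at 13 weeks against 8.17 to 8.29 in controls. For the import genes it was 9.48 to 9.69 in mutants against 9.38 to 9.54 in controls at 9 weeks, and 9.31 to 9.38 in mutants against 9.26 to 9.5 in controls at 13 weeks. The carriers' means did not overlap between genotypes at either age, and those of the import genes did.

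**Figure D3:**
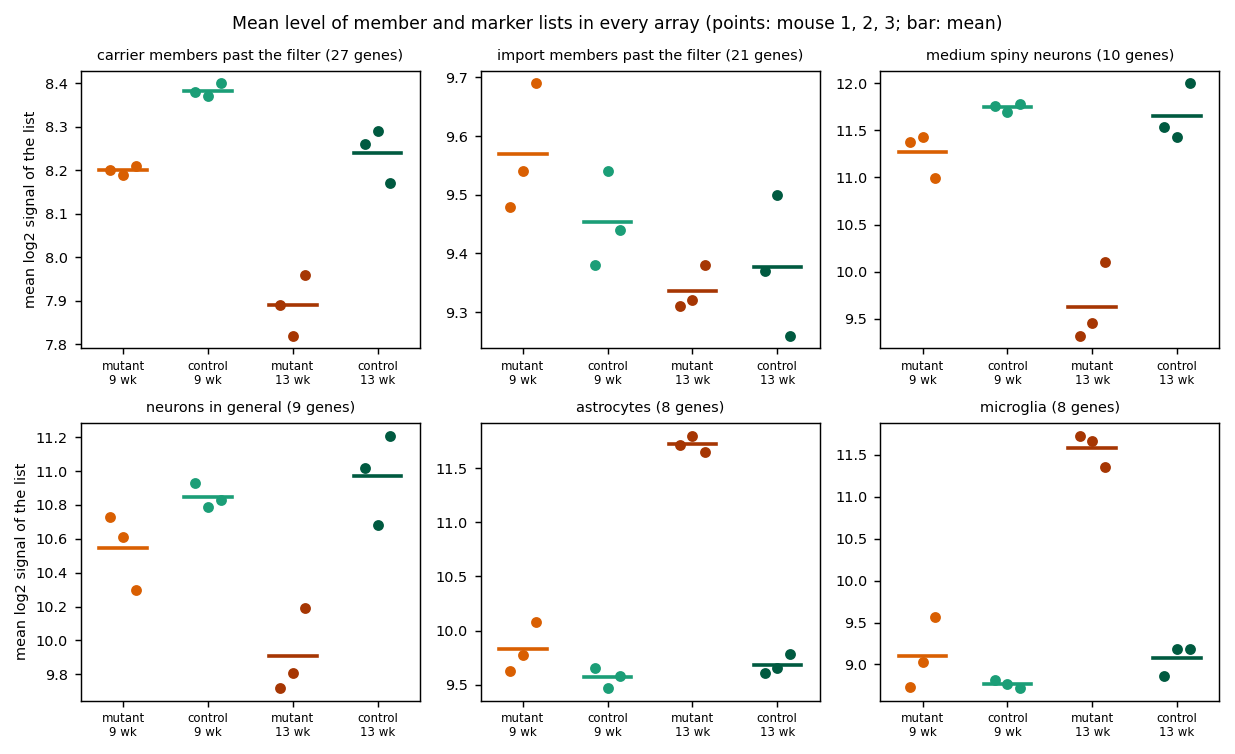
Mean log2 level of each list of genes in each array, mutants left of controls at each age, for the carriers, the import genes and the cell type markers. The 13-week mutants are lowest for the carriers (7.82 to 7.96) and for the medium spiny neuron markers (9.32 to 10.1), and highest for the astrocyte (11.65 to 11.8) and microglia markers (11.36 to 11.73).

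Control mouse 3 at 13 weeks also entered the estimate of spread for every comparison. Without it, 21 members passed at 13 weeks (4 higher and 17 lower), beside 47.9% of all genes, and 20 of them were the same genes. Slc25a17 was lost and Slc25a51 gained. At 9 weeks, where it is in neither group, 13 members then passed in place of 5, beside 16.5% of all genes. Higher in mutants were Slc25a28, Timm9, Timm13, Timm23 and Timm50, and lower were Slc25a5, Slc25a11, Slc25a14, Slc25a22, Slc25a23, Slc25a33, Slc25a42 and Timm44. The 9-week values themselves do not change in that fit.

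**Figure D4:**
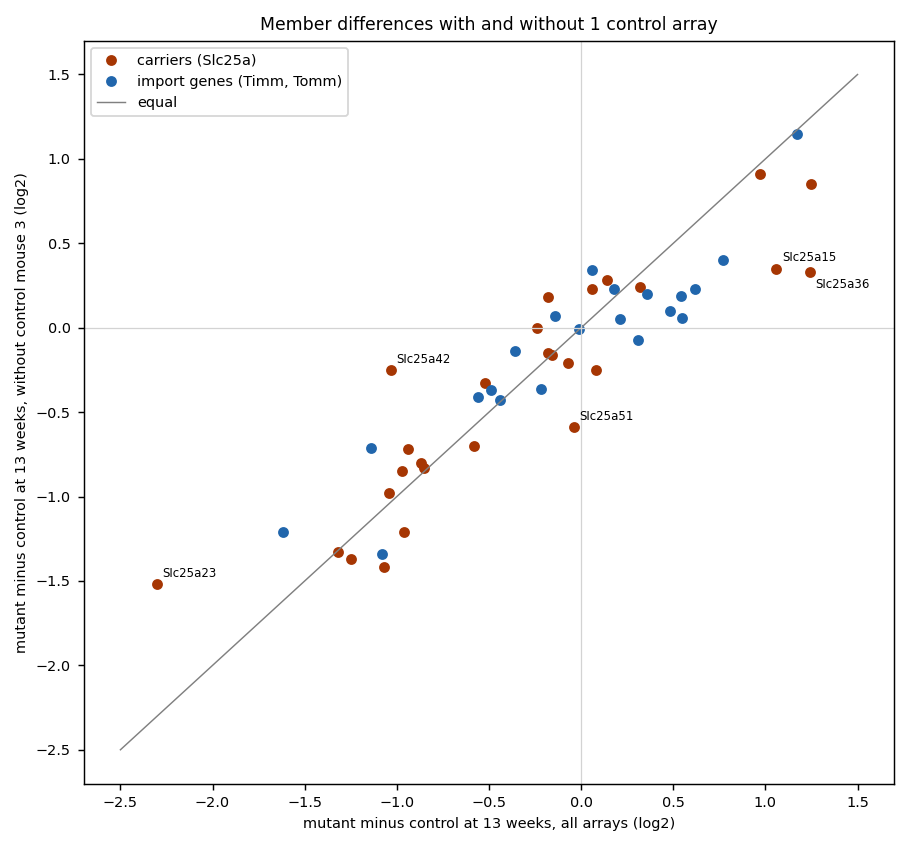
Difference between mutants and controls at 13 weeks (log2) for each tested member without control mouse 3, against the difference with all arrays. Members on the diagonal did not move. Slc25a36 (1.24 with all arrays, 0.33 without), Slc25a15 (1.06 and 0.35) and Slc25a23 (-2.30 and -1.52) moved far.

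The genotype difference itself was tested between ages, as the difference at 13 weeks minus that at 9 weeks. It passed for 5 of 48 members (10.4%), against 18.4% of all genes, 1 of them upward (2.08%, against 12.1%) and 4 downward (8.33%, against 6.37%). Timm8a1 rose further (0.78 ± 0.20, adjusted p = 0.0184 in limma), and Slc25a22 fell further (-0.73 ± 0.21, adjusted p = 0.0313). Slc25a29 (-0.79 ± 0.22, adjusted p = 0.0285) and Tomm40l (-1.62 ± 0.45, adjusted p = 0.0274) were lower in mutants at 13 weeks than at 9 weeks relative to controls, with differences of -0.08 and 0 at the earlier age. The other probe sets of Slc25a29 differed at 9 weeks by -0.86, -0.57, -0.27 and -0.15, so the small 9-week value holds for the probe set used. Timm9 was higher at 9 weeks and not at 13 weeks (-1.02 ± 0.28, adjusted p = 0.0228). None of these calls held in every leave-one-out fit. That of Timm8a1 ended without mutant mouse 2 at 9 weeks or mutant mouse 1 at 13 weeks (adjusted p at most 0.0535). The other 4 each ended without 4 or more of the arrays. The mean of probe sets also ended the calls of Timm9 (-0.35, adjusted p = 0.275) and Slc25a29 (-0.56, adjusted p = 0.171). For Timm9 the other probe set did not pass the filter. Dropping the filter ended that of Tomm40l (adjusted p = 0.0631).

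Between 9 and 13 weeks most members that differed in mutants were lower at the later age, and in controls no member passed. In mutants 12 of 48 members differed between ages (25%), against 32.7% of all genes, 1 higher (2.08%, against 16.1%) and 11 lower (22.9%, against 16.6%) at 13 weeks. Slc25a53 (-1.61 ± 0.31), Slc25a37 (-1.29 ± 0.30), Slc25a22 (-0.98 ± 0.15), Slc25a14 (-0.91 ± 0.19), Tomm70a (-0.89 ± 0.25) and Slc25a26 (-0.75 ± 0.17) fell most among those that passed. Also lower were Slc25a11, Slc25a28, Slc25a29, Timm8b and Timm9, and Slc25a30 was higher (0.45 ± 0.15). Slc25a14, Slc25a22, Slc25a26, Slc25a29, Slc25a37 and Slc25a53 passed in every alternative run for them, and the other 6 did not, with adjusted p values of up to 0.306. Slc25a30 lay near the filter's percentile, at 4.06, 3.71 and 3.97 in mutants at 13 weeks against 3.42, 3.49 and 3.47 in mutants at 9 weeks. In controls, limma called 0 of 48 members at an adjusted p under 0.05, against 0.145% of all genes. At an unadjusted p under 0.05, 13 members differed there, 5 higher and 8 lower at 13 weeks, where 17.3% of all genes did. Array weights called 12 members. Among all genes, the alternatives other than leaving out 1 array reached 543 higher and 1383 lower. The 2 ages of mutants also differ in sex, since 3 of 3 mutants were female at 13 weeks and 1 of 3 at 9 weeks.

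**Figure D5:**
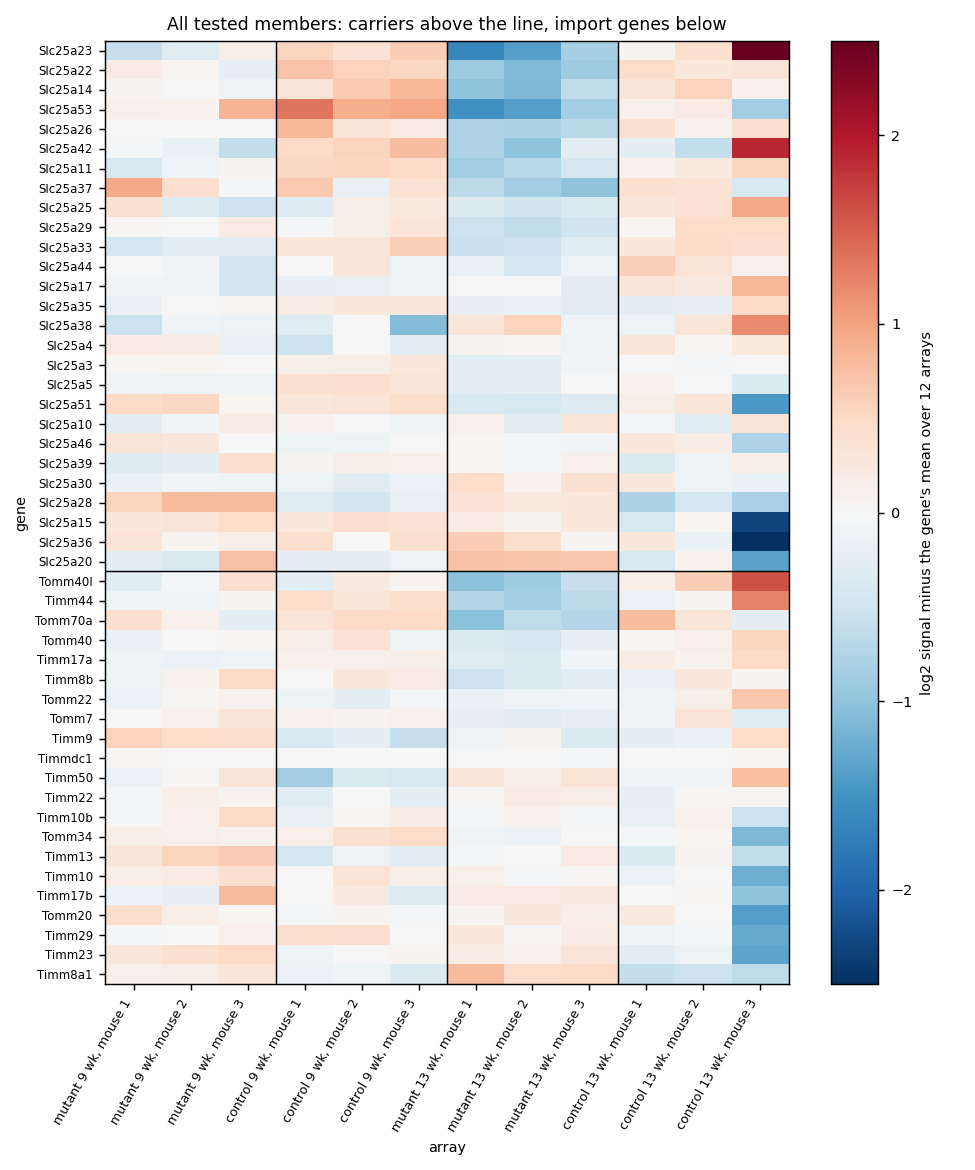
Log2 level of each tested member in each array minus the member's mean over the 12 arrays, with mutants left of controls at each age and colours ending at 2.5 in either direction. Control mouse 3 at 13 weeks differs from its group mates in many rows, and the rows of Slc25a22, Slc25a14 and Tomm70a are lowest in the 3 mutants at 13 weeks.

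Related genes outside the named families were described by the same fit. Of the carrier family members that bear other symbols, 2 were tested, and Mtch1, an outer membrane member, fell at 13 weeks. It read 10.12, 10.08 and 10.41 in mutants against 11.59, 11.64 and 12.70 in controls (-1.77 ± 0.26, adjusted p = 0.000193 in limma). Of 11 other genes of mitochondrial transport, 1 rose and 5 fell, where 23.4% of all genes rose and 21.9% fell. The sideroflexins, a separate family of inner membrane transporters that includes the serine carrier Sfxn1, gave the largest falls, with Sfxn4 (-1.70 ± 0.18), Sfxn3 (-1.52 ± 0.19) and Sfxn1 (-1.42 ± 0.19), while Sfxn2 did not pass (0.35 ± 0.31, adjusted p = 0.382). The outer membrane channel Vdac1 fell by less (-0.68 ± 0.15), as did the transporter Abcb8 (-0.66 ± 0.18), and Mpc1, a subunit of the pyruvate carrier, rose (0.59 ± 0.17).

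Of 20 partners of import, 4 rose and 2 fell at 13 weeks, beside the same 23.4% and 21.9% of all genes. Gfer, the oxidase that reloads the disulfide relay folding the small Tims, read 8.69, 8.67 and 8.04 in mutants against 7.08, 7.12 and 7.85 in controls (1.12 ± 0.25, adjusted p = 0.00339 in limma). At 9 weeks it read 8.49, 8.49 and 8.41 in mutants against 7.07, 7.40 and 6.75 in controls, and was the only partner that passed at that age. Immp1l, a protease of the inner membrane (0.83 ± 0.20), Grpel1, a co-chaperone of the import motor (0.70 ± 0.23), and Pmpcb, a subunit of the presequence peptidase (0.49 ± 0.15), also rose. Oxa1l, an insertase of the inner membrane (-0.47 ± 0.18), and Mtx2, an outer membrane protein (-0.39 ± 0.13), fell. Sfxn3 and Sfxn1 were the only genes of the transport list that passed at 9 weeks, both lower (-1.11 and -0.82).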

How the data were processed

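RNA of the striatum of 12 mice was measured on 1 Affymetrix array each. Per the labels, the authors processed the signals with GCRMA (its version is not given in the sources used here), giving deposited values in log2 units from 1.09 to 15.48, with array medians from 5.29 to 5.52. Differences of faint genes near the background are compressed. The number of arrays limits the precision.

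Of 22690 probe sets, 64 array controls were left out, and the platform annotation gave 1 symbol to 20380, several to 691 and none to 1555. Probe sets without exactly 1 symbol were not used, among them 3 that join a member's symbol to another gene. Updating symbols through RefSeq changed 0 of 12369. Where a symbol had several probe sets (26 members), the one with the highest mean over the arrays stood for it. All 12 arrays were fitted in R 4.3.3 with limma 3.58.1 (lmFit, eBayes), 4 group means and 8 residual degrees of freedom. P-values are two-sided. The members, lists and naming rule (a panel by role, then the largest differences past the threshold) were chosen with earlier results of these data known. The panel genes Slc25a1, Slc25a12, Slc25a18, Slc25a27, Timm21, Tomm5 and Tomm6 were not analysed here. The procedure was tested on simulated data.

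As alternatives, arrays were quantile normalized or centred on their medians, filters were dropped or raised to the 60th percentile, probe sets were averaged, and arrays were weighted or left out in turn. Others were a trended robust prior, fits of the compared groups alone, and terms for sex or replicate number. Nothing in the labels says that replicate numbers pair mice.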

Additional observations from a re-analysis of the deposited data

Results flagged for a closer look

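The genotype difference of 5 members differed between ages by the interaction term of limma, with positive values meaning a higher mutant-minus-control difference at 13 weeks than at 9 weeks. For Timm8a1 it was 0.78 (adjusted p = 0.0184), with a difference of 1.17 at 13 weeks and 0.39 at 9 weeks. For Slc25a22 it was -0.73 (adjusted p = 0.0313), with -1.32 at 13 weeks and -0.59 at 9 weeks. For Slc25a29 it was -0.79 (adjusted p = 0.0285), and for Tomm40l -1.62 (adjusted p = 0.0274). For Timm9 it was -1.02 (adjusted p = 0.0228), with -0.14 at 13 weeks and 0.88 at 9 weeks. Timm8a1 passed in 20 of the 22 alternatives run for this term, and the others in 14 to 17.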

How the results depend on the processing

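At 13 weeks 14 of the 21 members called, Slc25a28, Timm8a1, Slc25a22, Slc25a14 and Tomm40l among them, passed in all 23 alternatives, and at 9 weeks 1 of 5 did (Slc25a28). No member's difference with a call changed direction in the alternatives run.

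Leaving out 1 array gave 1 to 5 members higher and 0 to 8 lower at 9 weeks, 3 to 9 higher and 11 to 18 lower at 13 weeks, 0 to 2 higher and 0 to 8 lower for the interaction, 0 to 3 higher and 6 to 17 lower for age in mutants, and 0 for age in controls. Array weights, whose estimate did not converge fully, gave 9 higher and 15 lower at 9 weeks, 6 and 20 for the interaction, 7 and 26 for age in mutants, and 4 and 8 for age in controls. With sex as a term, 1 member was lower at 9 weeks, 10 were higher at 13 weeks, 2 were higher for the interaction and 2 for age in mutants. Without both arrays that stand apart (mutant mouse 3 at 9 weeks and control mouse 3 at 13 weeks, chosen after seeing the data), 9 were lower at 9 weeks, 3 higher and 9 lower for the interaction, 4 higher for age in mutants and 1 lower for age in controls. Lower at 9 weeks were 7 in the fit of the compared groups alone, 4 with the trended prior and 1 with quantile normalization. Higher for age in mutants were 2 with the mean of probe sets, 3 with no filter and 0 with median centring, and higher for the interaction 2 with no filter. Counts over all genes moved too, so the member counts above do not show a change particular to the members. Leaving out 1 array gave 19 to 527 genes higher and 42 to 834 lower at 9 weeks. At 13 weeks it gave 1537 to 2004 and 1361 to 1960. For the interaction it gave 781 to 1203 and 277 to 747, and for age in mutants 1047 to 1702 and 852 to 2132. The other alternatives reached 1725 and 2107 at 9 weeks and 2187 and 2115 for the interaction. For age they reached 2453 and 3299 in mutants, and 543 and 1383 in controls. The cause of these changes was not tested.

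With the replicate number as a block, 3 members were higher and 3 lower at 9 weeks, and 4 and 17 at 13 weeks. For the interaction it was 1 and 5, and for age in mutants 1 and 11. Counts of all genes in this fit are not given, so these counts do not show a change particular to the members. Among the genes named, the block ended the calls of Slc25a17 at 13 weeks (adjusted p = 0.0531) and Slc25a28 for age in mutants (0.0664), and added Timm8b at 13 weeks (0.0396) and Slc25a11 at 9 weeks (0.0381). Deviations of same-numbered mice correlated between -0.073 and 0.184, which did not show that the numbers pair the samples.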
